A study of Mus musculus with 12 samples.

Results

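The microRNAs of the miR-15/16 family and their close relative mmu-miR-503, 7 guide strands that begin with almost the same bases, were followed in the blood of mice that lack Tff3. The members are the guide strands mmu-miR-15a, mmu-miR-15b, mmu-miR-16, mmu-miR-195, mmu-miR-497, mmu-miR-322 and mmu-miR-503. They were chosen by name, as the guide strands of 4 small loci, and they are 7 of the 710 mouse miRNAs on the array. All 7 passed the filter on dim miRNAs, as did all 710.

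The study compared peripheral blood of 6 tff3 KO mice with that of 6 wild type mice, each genotype with 3 females and 3 males. Tff3 encodes trefoil factor 3, a small peptide that goblet cells secrete together with mucus. The sources used here give neither age nor strain of the mice, and the series' design text calls the same animals a knock-down. Blood pellets were taken from each animal on its own and total RNA was labelled with biotin by primer extension on the array, so the 12 arrays stand for 12 mice. The array reads miRNAs and no messenger RNA. Neither Tff3 nor a target of the family was therefore measured, and the genotype labels were not checked against Tff3. Blood was not separated into cell types, so fewer cells of a type and less of a miRNA per cell cannot be told apart.

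A miRNA guides a silencing complex to messenger RNAs that pair with its seed, the bases near its 5′ end. The miR-15/16 family is known for repressing Bcl2, which protects cells from apoptosis, and several cyclins and cyclin-dependent kinases of the G1 phase, and so for slowing cell division. The miR-15a/16-1 locus is the one often deleted in human chronic lymphocytic leukaemia, and miR-16 is abundant in red blood cells.

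The mature sequences are shown because the seed is what joins these miRNAs and the remaining bases are what the array has to tell them apart. They are the sequences of RefSeq on the assembly GRCm38.p6, written 5′ to 3′, with the seed (bases 2 to 8) in capitals. RefSeq uses the names miR-195a-5p for mmu-miR-195 and miR-497a-5p for mmu-miR-497.

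mmu-miR-15a: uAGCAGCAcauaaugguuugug
mmu-miR-16: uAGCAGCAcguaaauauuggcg
mmu-miR-15b: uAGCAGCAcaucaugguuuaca
mmu-miR-195: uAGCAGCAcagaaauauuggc
mmu-miR-497: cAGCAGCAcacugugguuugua
mmu-miR-322: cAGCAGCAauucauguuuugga
mmu-miR-503: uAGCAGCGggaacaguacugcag

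The seed AGCAGCA is shared by 6 members, and mmu-miR-503 has AGCAGCG, which differs at the last base of the seed. Of 1679 mature mouse miRNA names in the RefSeq table, 11 (0.655%) carry the 6 bases of positions 2 to 7 that all members have, 10 of them with AGCAGCA and 1 with AGCAGCG at positions 2 to 8. The 4 of these 11 that are not members were not matched to any miRNA of the array. Behind the seed the members diverge. Over the 21 pairs, aligned from the first base, between 45.5% and 90.5% of positions were the same, and after position 8 the pairs shared from 4 to 11 bases. The closest pair was mmu-miR-16 and mmu-miR-195, with 19 of 21 positions the same. They differ by G10A and U11G, counted from the 5′ end with the base of mmu-miR-16 first. In mmu-miR-15a and mmu-miR-15b 18 of 22 positions were the same, and the farthest pair was mmu-miR-497 and mmu-miR-503. Whether a probe of one member also captures another was not tested.

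The members come from 4 loci. The mature mmu-miR-15a lies at chr14:61632075-61632096 on the minus strand, and 1 copy of mmu-miR-16 lies at chr14:61631936-61631957 on the same strand. Their hairpins, Mir15a and Mir16-1, are 54 bases apart within the long non-coding gene Dleu2. The mature mmu-miR-15b lies at chr3:69009775-69009796 on the plus strand, with the other copy of mmu-miR-16 at chr3:69009918-69009939. These hairpins, Mir15b and Mir16-2, are 66 bases apart within Smc4, which encodes a condensin subunit. Both copies give the same mature mmu-miR-16, so its single value on the array sums both loci. The mature mmu-miR-497 at chr11:70234730-70234751 and mmu-miR-195 at chr11:70235062-70235082 lie on the plus strand with 241 bases between their hairpins. The mature mmu-miR-322, the mouse counterpart of human miR-424, lies at chrX:53054306-53054327 and mmu-miR-503 at chrX:53054027-53054049, both on the minus strand. Their hairpins are 200 bases apart within the long non-coding gene C430049B03Rik.

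In raw intensity, the scanner brightness as deposited, the members split into a bright and a dim set. A probe's brightness depends on its own affinity, so ranks on the array are given as a description and the levels of different miRNAs are not set against each other as amounts. Among the 710 miRNAs, mmu-miR-16 ranked between 1 and 6 from the brightest in knockouts and between 4 and 6 in wild types. For mmu-miR-15b the rank lay between 2 and 6 in knockouts and between 3 and 7 in wild types, and for mmu-miR-15a between 10 and 22 in knockouts, against 16 and 21 in wild types. mmu-miR-195 ranked between 35 and 49 in knockouts and between 33 and 47 in wild types. The median share of miRNAs dimmer than mmu-miR-497 was 80.5% in knockouts and 84.1% in wild types. For mmu-miR-322 it was 76.9% in knockouts and 74.7% in wild types, and for mmu-miR-503 78.9% in knockouts and 74.7% in wild types.

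The chromosome 14 and chromosome 3 miRNAs carried nearly all of the family's signal. Raw intensity of mmu-miR-16 ran from 26899 over a median of 37015 to 58822 in knockouts and from 16404 over 23047 to 59578 in wild types. The ranges overlapped. The 2 brightest wild types, 7 and 8, at 45803 and 59578, stood above the other wild types, which lay between 16404 and 23166. mmu-miR-15b ran from 28835 over 35340.2 to 47351 in knockouts and from 14892 over 23022 to 50699.8 in wild types. Here, too, wild types 7 and 8 were bright, at 50699.8 and 49864, and the other wild types lay between 14892 and 25290.0, below every knockout. mmu-miR-15a ran from 6446 over 9072 to 16412 in knockouts and from 4513 over 6734 to 16492 in wild types, with wild types 7 and 8 again the brightest of their genotype. The summed intensity of all miRNAs moved with these values. It was 814648 and 1111470 on wild types 7 and 8, against 391740 to 576861 on wild types 9 to 12, and 472963 to 814468 on knockouts. Its part in the raw values was not tested.

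As a share of each array's summed intensity, the 7 members together held 14.4% ± 3.6 in knockout mice, against 11.1% ± 1.8 in wild type mice (SD, n = 6 each). The range was 10.97% to 21.3% in knockouts and 8.77% to 14.1% in wild types, so the genotypes overlapped. Knockout 1, at 21.3%, stood apart, and without it knockouts held 12.99% ± 1.5 (SD, n = 5), which brought the difference from wild types to 1.85 percentage points, against 3.23 with it. mmu-miR-15a, mmu-miR-15b and mmu-miR-16 made up between 92.3% and 97.3% of the members' intensity on every array. No test was made of this share, a score over chosen members.

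**Figure D1:**
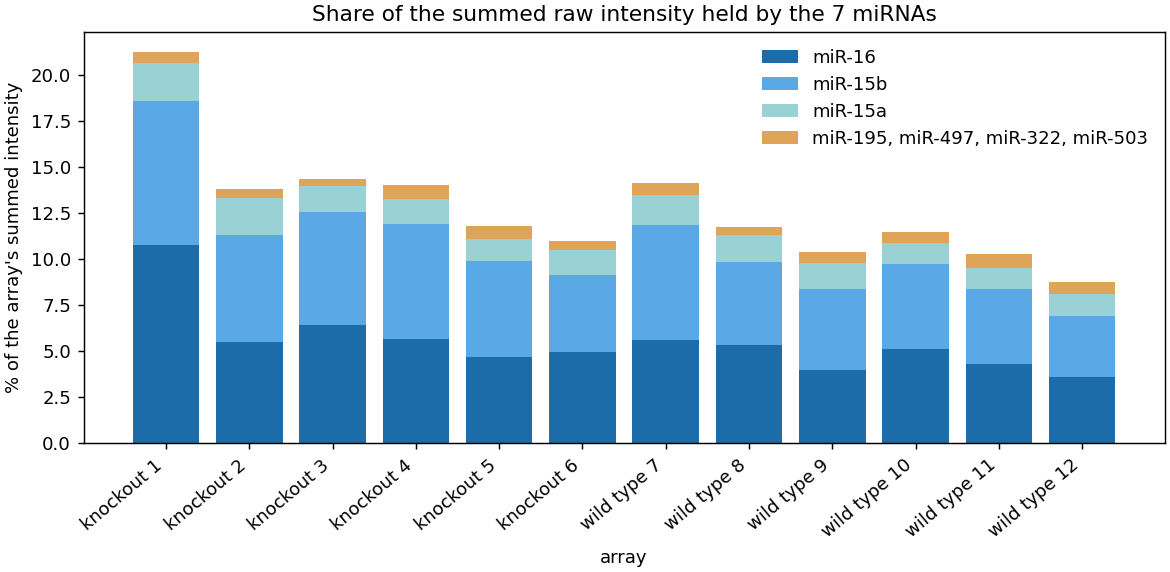
Stacked bars give the percent of each array's summed raw intensity held by the members, with mmu-miR-16, mmu-miR-15b and mmu-miR-15a as single segments and the other 4 members together. Arrays run along the x axis, knockouts 1 to 6 left of wild types 7 to 12, 1 mouse per bar; knockout 1 reaches 21.3%, and the other 11 bars lie between 8.77% and 14.4%.

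From here on a level is log2(quantile-normalized intensity + 50). Quantile normalization gives every array the same set of values, so for miRNAs as bright as mmu-miR-15b and mmu-miR-16 the level records little more than their rank. On this scale no member passed the test between the genotypes. With limma and Benjamini-Hochberg adjustment over all 710 miRNAs, 0 of 7 members passed the threshold of 0.05, against 0% of all miRNAs. At an unadjusted p under 0.05 with limma, 0 members passed, against 9.01% of all miRNAs. The exact rank-sum test likewise passed 0 of 7 at either level. Of all 710 miRNAs it passed 53 unadjusted and 0 adjusted. No member had genotypes that did not overlap, against 0.704% of all miRNAs. Differences of 5 members were above 0 and of 2 below 0, with a median of 0.14. Of all 710, 351 were above and 359 below 0, with a median of -0.0015.

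The chromosome 14 and chromosome 3 members had positive differences, small on this scale. mmu-miR-15b, the guide strand of the Smc4 locus, had a level of 15.10 ± 0.29 in knockout mice, against 14.82 ± 0.26 in wild type mice (SD, n = 6 each). Its difference of 0.28 (SE 0.17, 95% interval -0.08 to 0.64) had an adjusted p of 0.640 with limma. The levels ran from 14.72 over 15.07 to 15.42 in knockouts and from 14.43 over 14.82 to 15.22 in wild types, with wild type 12 the lowest. mmu-miR-16 was at 15.07 ± 0.30 in knockout mice, against 14.94 ± 0.12 in wild type mice, a difference of 0.14 (SE 0.16, interval -0.19 to 0.47, adjusted p = 0.832 with limma). Its levels ran from 14.72 over 15.02 to 15.63 in knockouts and from 14.72 over 14.97 to 15.02 in wild types. Only knockout 1 lay above every wild type. mmu-miR-15a was at 13.24 ± 0.35 in knockout mice, against 13.09 ± 0.14 in wild type mice, a difference of 0.15 (SE 0.17, interval -0.21 to 0.50, adjusted p = 0.833 with limma). Knockouts ran from 12.74 over 13.15 to 13.76, a wider range than the 12.90 over 13.11 to 13.27 of wild types, and enclosed it. Single arrays carried much of these differences. Without knockout 1 they were 0.025 for mmu-miR-16 and 0.042 for mmu-miR-15a, and without knockout 5 they were 0.22 and 0.25 in the same order. For mmu-miR-15b the difference ran from 0.19 without wild type 12 to 0.37 without wild type 7. Scaling to the 75th percentile gave larger differences, 0.46 for mmu-miR-16, 0.44 for mmu-miR-15b and 0.28 for mmu-miR-15a (adjusted p = 0.926, 0.926 and 0.952 with limma).

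Both members of the chromosome 11 locus had negative differences. mmu-miR-195 was at 11.36 ± 0.37 in knockout mice, against 11.67 ± 0.34 in wild type mice (SD, n = 6 each), a difference of -0.31 (SE 0.20, interval -0.74 to 0.11, adjusted p = 0.670 with limma). Its levels ran from 10.94 over 11.35 to 11.87 in knockouts and from 11.05 over 11.73 to 11.95 in wild types, and wild type 8 was the 1 wild type among the low knockouts. mmu-miR-497 was at 8.56 ± 0.16 in knockout mice, against 8.87 ± 0.44 in wild type mice, a difference of -0.31 (SE 0.19, interval -0.71 to 0.09, adjusted p = 0.643 with limma). Knockouts lay close together, from 8.38 over 8.50 to 8.76, and wild types ran from 8.19 over 8.91 to 9.40. The wild types were not alike. Numbers 7 and 8 were at 8.59 and 8.19, within or below the knockouts, and numbers 9 to 12 lay between 8.76 and 9.40. With the columns 1 to 8 set against 9 to 12 as a covariate, the difference of mmu-miR-497 was 0.17 (adjusted p = 0.913 with limma). In that fit the knockouts are compared with wild types 7 and 8 alone. The negative differences also shrank under other scalings. Scaling to the 75th percentile gave -0.10 for mmu-miR-195 and -0.18 for mmu-miR-497, and no normalization gave -0.08 and -0.16 in the same order.

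The X-linked members, known in mouse muscle for promoting exit from the cell cycle, had positive differences. On quantile-normalized levels their size was similar to that of the bright members. mmu-miR-322 was at 8.23 ± 0.26 in knockout mice, against 8.07 ± 0.26 in wild type mice (SD, n = 6 each), a difference of 0.17 (SE 0.17, interval -0.18 to 0.52, adjusted p = 0.832 with limma). Its levels ran from 7.92 over 8.25 to 8.68 in knockouts and from 7.64 over 8.11 to 8.39 in wild types. The genotypes overlapped over most of their range. mmu-miR-503 was at 8.37 ± 0.24 in knockout mice, against 8.26 ± 0.44 in wild type mice, a difference of 0.11 (SE 0.20, interval -0.31 to 0.52, adjusted p = 0.889 with limma). Knockouts ran from 8.02 over 8.40 to 8.61 and wild types from 7.82 over 8.12 to 9.07. Wild type 12 held the highest level of either genotype. The difference of mmu-miR-503 was 0.28 without wild type 12 and 0.022 without wild type 7, and that of mmu-miR-322 was 0.076 without knockout 1. Raw intensities of these dim probes were 168 to 392 in knockouts and 124 to 336 in wild types for mmu-miR-322, and 188 to 432 in knockouts and 148 to 404 in wild types for mmu-miR-503. Those of mmu-miR-497 were 212 to 576 in knockouts, against a median of 334 and a highest value of 472 in wild types.

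**Figure D2:**
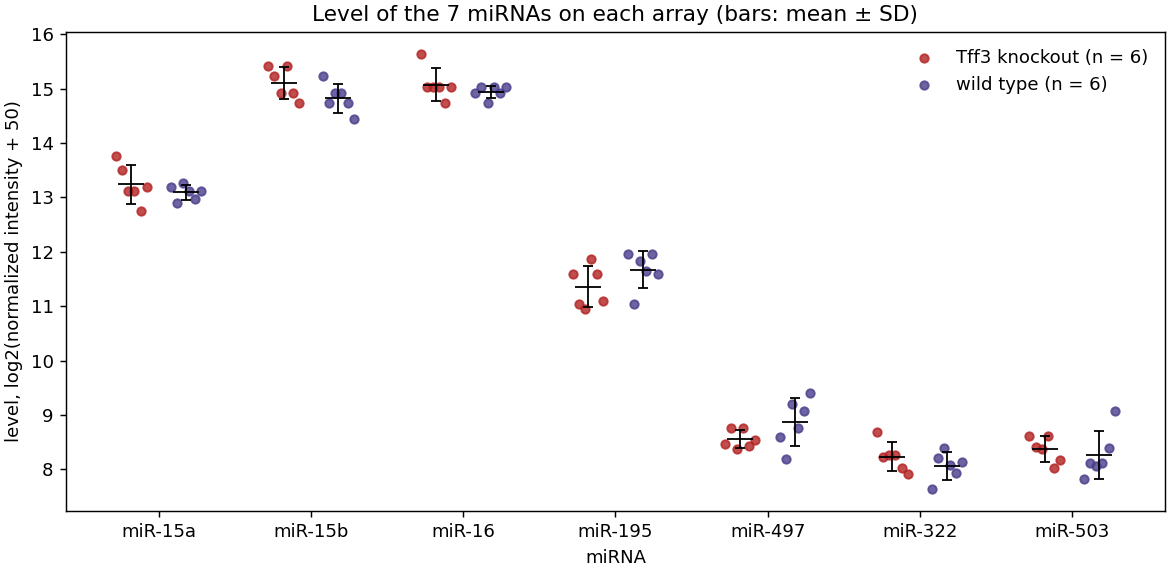
Points are arrays, 1 mouse each, with knockouts left of wild types for each member on the x axis; the y axis is the level, log2(quantile-normalized intensity + 50), and black bars are the mean ± SD of 6 arrays. The genotypes overlap for each of the 7 miRNAs, and the knockout point at 15.63 for mmu-miR-16 is knockout 1.

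**Figure D3:**
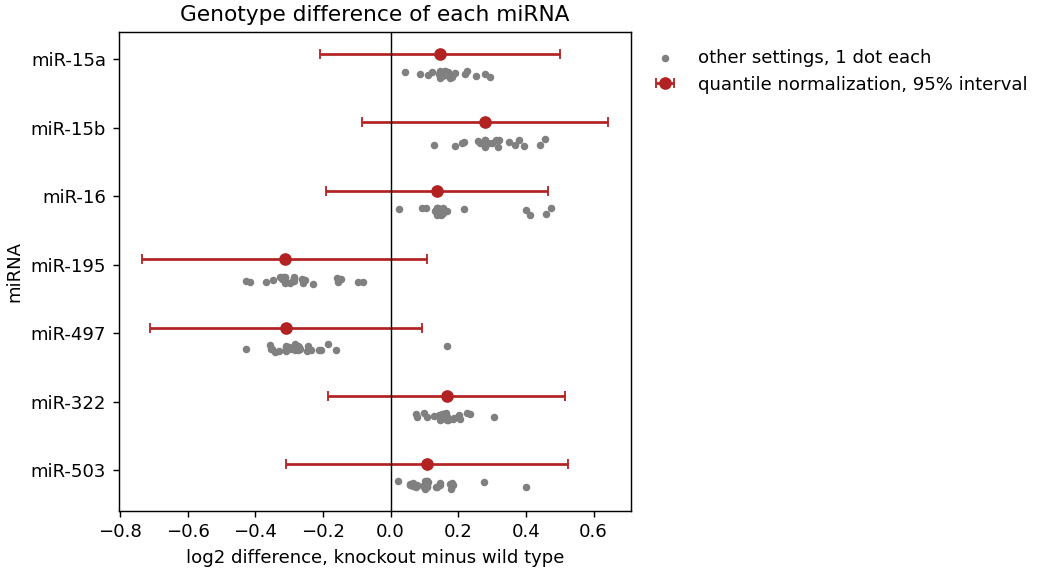
Red points give the log2 difference, knockout minus wild type, of each member with its 95% interval from limma, and grey dots below them the same difference under the 27 other settings. All 7 intervals cross 0, and the 1 grey dot on the other side of 0 from its red point is mmu-miR-497 at 0.17 with the column covariate. Settings that change only the test or the miRNAs tested repeat the value of the red point.

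Members of 1 locus were next compared within each array, as differences of their quantile-normalized levels. Such log2 ratios follow the ranks of the miRNAs and are not ratios of the array's own intensities. That of mmu-miR-15a over mmu-miR-16 was -1.91 on knockouts 3 and 4 and wild types 10 and 12. On each of these arrays the ranks were 18 and 4. For the dim mmu-miR-497, mmu-miR-322 and mmu-miR-503 the offset also enters the ratio. The log2 ratio of mmu-miR-15a over mmu-miR-16 was -1.84 ± 0.16 in knockout mice, against -1.85 ± 0.23 in wild type mice (SD, n = 6 each), and their difference was 0.0093 (exact two-sided permutation p = 0.948). mmu-miR-15b over mmu-miR-16 was 0.03 ± 0.27 in knockout mice, against -0.11 ± 0.33 in wild type mice, a difference of 0.14 (exact permutation p = 0.470). mmu-miR-15b was the brighter of the pair on 3 knockout and 2 wild type arrays. mmu-miR-195 over mmu-miR-497 was 2.80 ± 0.37 in knockout mice, against 2.80 ± 0.38 in wild type mice, a difference of -0.0048 (exact permutation p = 0.987). mmu-miR-322 over mmu-miR-503 was -0.14 ± 0.16 in knockout mice, against -0.20 ± 0.45 in wild type mice, a difference of 0.06 (exact permutation p = 0.784). The ratio of the X-linked pair spread more widely in wild types, from -0.94 on wild type 12 to 0.33 on wild type 9, than in knockouts, from -0.35 to 0.07. No pair passed after adjustment over the 4 pairs (adjusted p = 0.987 for each). The sign of all 4 differences turned when arrays were scaled to their 75th percentile in place of quantile normalization. That scaling uses a common factor per array, which cancels in the ratios of the bright members. It gave -0.18 for mmu-miR-15a over mmu-miR-16 and -0.019 for mmu-miR-15b over mmu-miR-16.

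Across the 12 arrays, how far the members moved together depended on the normalization. On quantile-normalized levels, 13 of the 21 pairs had a positive Pearson r, with a range of -0.32 to 0.72 and a median of 0.28, and 0 passed a permutation test adjusted over the 21 pairs. The 1 pair with an unadjusted p under 0.05 for Pearson r was mmu-miR-15a and mmu-miR-16, with r = 0.72 (permutation p = 0.018, adjusted 0.342). Its Spearman rho was 0.33 (permutation p = 0.289, adjusted 0.660). The r of this pair rested on knockouts 1 and 2, since it was 0.21 without them, and it was 0.89 within knockouts and -0.61 within wild types. The other pairs of a locus had r = 0.40 for mmu-miR-15b and mmu-miR-16, 0.52 for mmu-miR-195 and mmu-miR-497, and 0.45 for mmu-miR-322 and mmu-miR-503. By Spearman rho, other pairs had an unadjusted permutation p under 0.05. They were mmu-miR-16 and mmu-miR-503 (rho = 0.67, p = 0.018, adjusted 0.383) and mmu-miR-195 and mmu-miR-497 (rho = 0.59, p = 0.047, adjusted 0.489).

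Each array was then scaled to its 75th percentile, which keeps the distances among the brightest miRNAs. By Pearson r, 4 of the 21 pairs passed, and 3 of them join the bright members. mmu-miR-15b and mmu-miR-16 had r = 0.94 (permutation p adjusted over the 21 pairs 0.00042, rho adjusted 0.0019), with r = 0.92 without the 2 farthest arrays, 0.85 within knockouts and 0.97 within wild types. mmu-miR-15a and mmu-miR-15b had r = 0.90 (adjusted permutation p = 0.001, rho adjusted 0.011), and r was 0.76 without the 2 farthest arrays, 0.54 within knockouts and 0.96 within wild types. mmu-miR-15a and mmu-miR-16 had r = 0.89 (adjusted permutation p = 0.001, rho adjusted 0.021), and r was 0.75 without the 2 farthest arrays, 0.72 within knockouts and 0.94 within wild types. The fourth pair, mmu-miR-195 and mmu-miR-503, moved in opposite directions with r = -0.77 (adjusted permutation p = 0.018, rho adjusted 0.045), which came to -0.45 without wild types 7 and 12. This call was made under 1 scaling, as r of the same pair was -0.04 with quantile normalization, -0.07 with cyclic loess and -0.28 with no normalization. By Spearman rho alone, mmu-miR-497 also passed under this scaling, with negative rho. It was -0.71 with mmu-miR-15b and -0.72 with mmu-miR-16 (adjusted permutation p = 0.045 for each). With quantile normalization these rho were -0.12 and -0.24. With no normalization, where 4 pairs passed by r too, the fourth was mmu-miR-322 and mmu-miR-503 of the X-linked locus (r = 0.84, adjusted permutation p = 0.0042). The 3 bright members also shared the high values of wild types 7 and 8, the arrays with the highest summed intensity. The part of array brightness in these correlations was not tested.

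**Figure D4:**
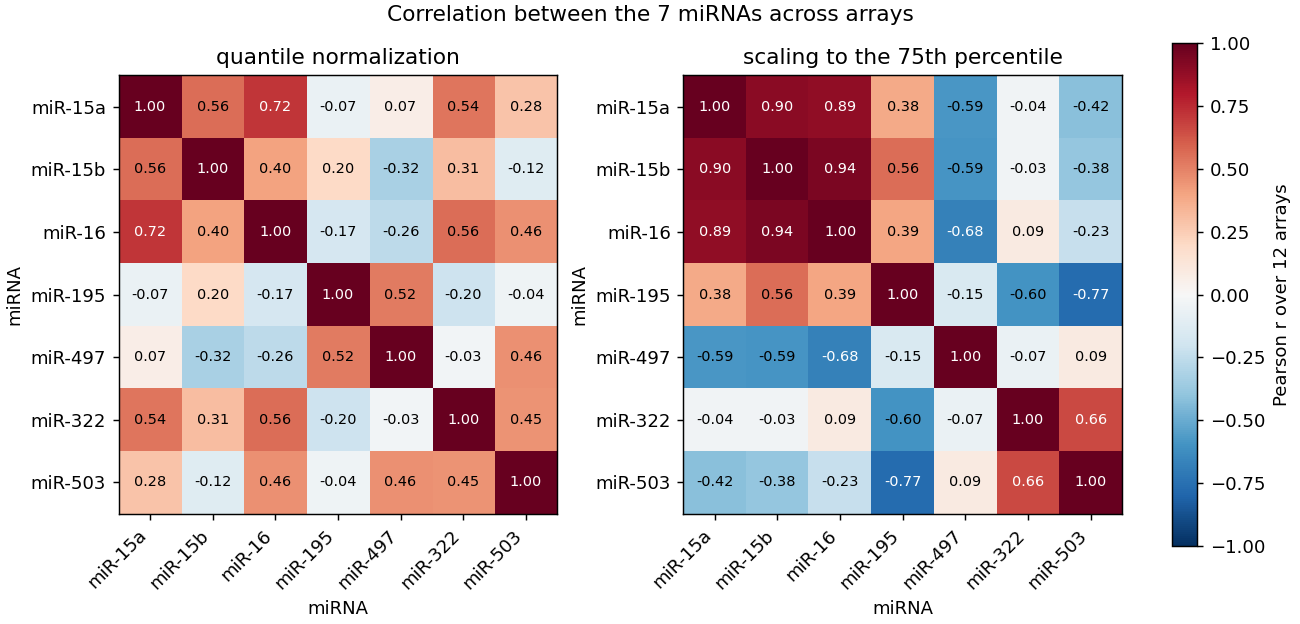
Each cell gives the Pearson r of 2 members over 12 arrays, on quantile-normalized levels in the left panel and after scaling to the 75th percentile in the right panel; red is positive, blue negative, and the diagonal is a member with itself. The block of mmu-miR-15a, mmu-miR-15b and mmu-miR-16 holds 0.40 to 0.72 on the left and 0.89 to 0.94 on the right.

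The miRNAs outside the family whose levels were most like each member's were ranked by Pearson r over the 12 arrays, after the mean of each genotype was taken off, among 348 miRNAs at or above the median level. These values are descriptions. mmu-miR-15a was most like miR-101a (r = 0.90) and let-7i (0.77), and mmu-miR-16 like miR-101a (0.71) and miR-489 (0.68). mmu-miR-15b was most like miR-186* (0.89) and miR-193 (0.86), mmu-miR-195 like miR-106a (0.74) and let-7d (0.74), and mmu-miR-497 like miR-93 (0.96) and miR-742 (0.94). mmu-miR-322 was most like miR-2137 (0.82) and let-7g* (0.81), and mmu-miR-503 like miR-1906 (0.91) and miR-763 (0.88). The likeness of mmu-miR-16 lay mostly in the knockouts, with r = 0.81 in knockouts and 0.08 in wild types for miR-101a, and 0.74 in knockouts and 0.21 in wild types for miR-489. For mmu-miR-15a and miR-101a r was 0.97 in knockouts and 0.48 in wild types.

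The passenger strands and neighbours of the 4 loci were read from the same fit. Of 19 such names searched, 12 were on the array. None passed limma's adjusted threshold or an unadjusted p under 0.05 (against 9.01% of all miRNAs), 4 differences were above 0 and 8 below, and their median was -0.08. Among the 5 passenger strands measured, 1 difference was above 0 and 4 were below. miR-16*, the strand opposite to mmu-miR-16, was at 7.45 ± 0.19 in knockout mice, against 7.79 ± 0.28 in wild type mice (SD, n = 6 each), a difference of -0.34 (adjusted p = 0.535 with limma). miR-15a* differed by -0.13 and miR-15b* by -0.11. Raw intensities of these strands were low, over all arrays 80 to 224 for miR-16*, 80 to 232 for miR-15a* and 16 to 164 for miR-15b*. Those of miR-322* were 132 to 396 and those of miR-503* 16 to 112. Among the 7 neighbours of mmu-miR-322 and mmu-miR-503 in the X-linked cluster, differences of 3 were above 0 and of 4 below. They included -0.23 for miR-450b-5p, 0.15 for miR-542-3p and 0.13 for miR-450a-3p, with adjusted p between 0.764 and 0.923 with limma over the 7. The raw intensities of these 3 were 16 to 140, 0 to 120 and 48 to 164 in the same order.

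Other miRNAs known to repress G1 cyclins or their kinases were set beside them. Of 16 listed, all were measured, 0 passed limma's adjusted threshold and 2 passed an unadjusted p under 0.05, where 9.01% of all miRNAs did. Differences of 8 were above 0 and of 8 below, with a median of 0.0064. miR-107 differed by -0.79 (adjusted p = 0.141 with limma), miR-34c by 0.36 (0.521) and miR-206 by 0.52 (0.586). The last 2 were dim, with raw intensities over all arrays of 12 to 156 for miR-34c and -4 to 148 for miR-206. Those of miR-107 were 668 to 2465. miR-107 and miR-103 also start with the 6 bases that the family has at positions 2 to 7, shifted by 1 base to positions 1 to 6, shown here in capitals.

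miR-107: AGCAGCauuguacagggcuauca
miR-103: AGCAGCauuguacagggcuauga

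The mature miR-107 lies at chr19:34820700-34820722 on the minus strand, and miR-103 at chr11:35782447-35782469 and chr2:131288103-131288125 on the plus strand. miR-103 differed by -0.51 (unadjusted p = 0.036 with limma). Neither passed the threshold, and no other miRNA matched on the array had these bases at the start.

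Within the knockouts, where the raw columns carry the mouse numbers of the labels, the members were compared between 3 females and 3 males. With limma 0 of 7 members passed the adjusted threshold, against 0% of all miRNAs, and 0 passed an unadjusted p under 0.05, against 7.46% of all miRNAs. Differences of 5 members, female minus male, were below 0. The smallest p belonged to mmu-miR-15a, whose levels were 13.11, 12.74 and 13.20 in knockout females and 13.76, 13.50 and 13.11 in knockout males. The lowest male was level with a female, and the difference was -0.44 (SE 0.23, adjusted p = 0.761 with limma). mmu-miR-16 differed by -0.30, mmu-miR-322 by -0.32, mmu-miR-503 by -0.20 and mmu-miR-15b by -0.17, whereas mmu-miR-195 differed by 0.33 and mmu-miR-497 by 0.04. Without knockout 1, a male, the differences were -0.10 for mmu-miR-16, -0.18 for mmu-miR-322, -0.05 for mmu-miR-15b and 0.54 for mmu-miR-195. Without knockout 6 that of mmu-miR-15b was -0.02, without knockout 5 that of mmu-miR-503 was -0.08, and without knockout 4 that of mmu-miR-195 was 0.15. Knockout males are columns 1 to 3 and knockout females columns 4 to 6, so sex and column order cannot be told apart.

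The authors' normalized values name each sample, and with them the genotype difference was compared between the sexes. Levels here are log2(authors' normalized intensity + 50). With limma's interaction term 0 of 7 members passed the adjusted threshold, against 0% of all miRNAs, and 0 passed an unadjusted p under 0.05, against 5.92% of all miRNAs. The smallest p belonged to mmu-miR-503. In females its levels were 7.95, 8.10 and 8.51 in knockouts, against 8.04, 8.31 and 8.94 in wild types, a difference of -0.24. In males they were 8.30, 8.33 and 8.51 in knockouts and no higher than 8.05, with a lowest level of 7.78, in wild types, a difference of 0.44. The genotypes overlapped in females and not in males, and 1 of 7 members was without overlap in males and 0 of 7 in females, against 12.5% of all miRNAs in males and 15.2% in females. The interaction of mmu-miR-503 was -0.68 (SE 0.33, unadjusted p = 0.060, adjusted p = 0.679 with limma). mmu-miR-16 had an interaction of -0.41, with a difference of -0.05 in females and 0.36 in males, and mmu-miR-15a one of -0.40, with -0.04 in females and 0.36 in males. The interaction was -0.35 for mmu-miR-497, -0.27 for mmu-miR-322, 0.20 for mmu-miR-195 and 0.08 for mmu-miR-15b.

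**Figure D5:**
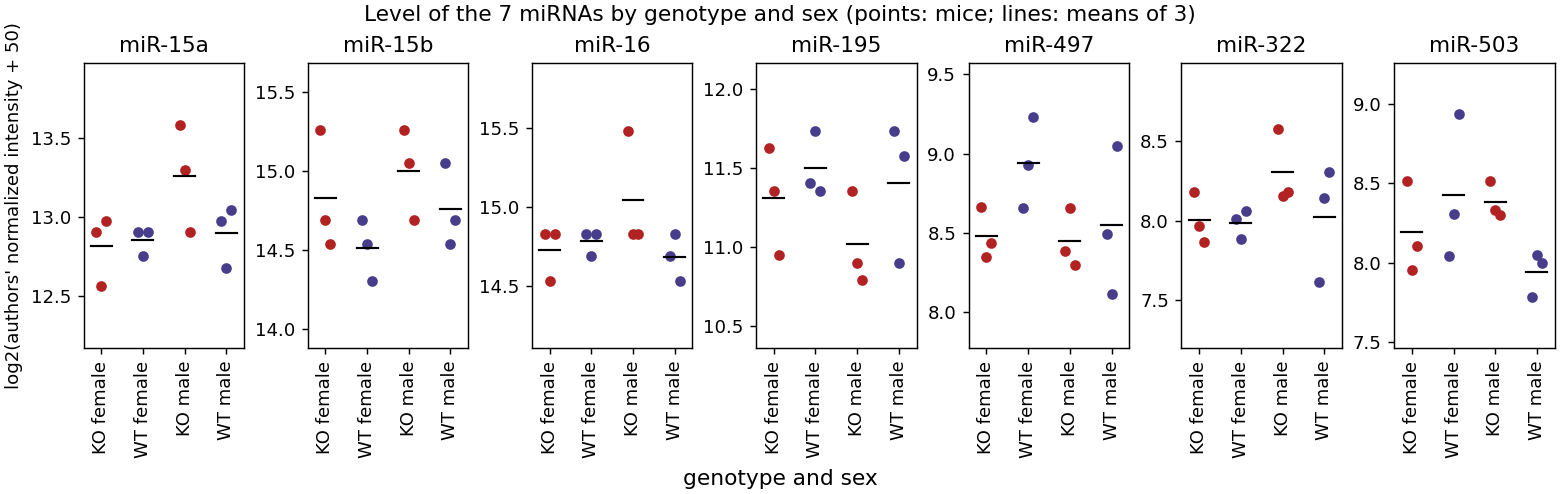
Each panel shows 1 member by genotype and sex, 3 mice per column, with knockouts in red left of wild types in dark blue within each sex; the y axis is log2(authors' normalized intensity + 50), 1.8 units high in every panel, and lines are means. The panel of mmu-miR-503 shows knockout males from 8.30 to 8.51 above wild type males from 7.78 to 8.05, with overlap in females. In males 12.5% of all 710 miRNAs were without overlap.

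Markers of the blood cells that carry the family were read as sums of raw intensity. The 3 erythroid miRNAs, miR-451, miR-144 and miR-486, summed to 30907 to 54957 in knockouts and 24290 to 69732 in wild types. Most of this sum was miR-486, at 23065.5 to 64575 over all arrays. On quantile-normalized levels the 3 were not alike. Knockout minus wild type was 1.02 for miR-144 (adjusted p = 0.415 with limma), -0.09 for miR-451 and -0.04 for miR-486. The neutrophil miRNA miR-223 was at 1128 to 3021 in knockouts and 628 to 19177 in wild types. The 2 leukocyte miRNAs summed to 944 to 2153 in knockouts and 432 to 3781 in wild types, and the 2 lymphocyte miRNAs to 1584 to 8039 in knockouts and 2570.0 to 9015 in wild types. The levels of the lymphocyte miRNAs differed by 0.16 for miR-150 and -0.60 for miR-342-3p (adjusted p = 0.885 and 0.535 with limma). Those of platelets summed to 2541 to 4953 in knockouts and 2573 to 7222 in wild types. No marker of these lists was at or below 0 on any array. Markers of other tissues were measured as well, at 32 to 6922 in knockouts and 56 to 4785 in wild types for the liver miRNA miR-122, and 220.0 to 1068 in knockouts and 304 to 608 in wild types for the sum of 3 muscle miRNAs. Of the muscle miRNAs, miR-133a was at 148 to 940 over all arrays, whereas miR-1 ran from -8 to 72 and miR-206 from -4 to 148. The 2 stromal miRNAs summed to 104 to 2617 in knockouts and 180.0 to 504 in wild types. Their part in the levels of the family was not tested.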

How the data were processed

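The authors deposited a table of microarray intensities for 710 mouse miRNAs in 12 columns, on a linear scale and not brought to a common scale. They also deposited a table of normalized intensity, whose columns all have medians between 99.7 and 104 and a lowest value of 1, and which correlated at 0.9971 to 0.9976 with the raw knockout columns on a log scale. The sources used here do not give its normalization, the scanner or the background method. Per the labels' protocols, blood came from each animal, so replicates are separate mice. The raw table numbers its wild-type columns 7 to 12, whereas the labels count wild types 1 to 6, which leaves those columns without a sex or a mouse number. Sex with genotype, and the replicate number, were therefore tested on the normalized table. The members and lists were chosen with earlier results of these data known.

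Raw intensities were quantile-normalized, an offset of 50 was added and log2 taken, which makes folds of dim probes too small. Tested were miRNAs that exceeded the array's lowest value on at least 6 of 12 arrays. Tests were two-sided, with lmFit and eBayes of limma 3.58.1 (R 4.3.3), an adjusted threshold of 0.05 by Benjamini-Hochberg over the 710 miRNAs, and were tested on simulated data. Ratios within an array had exact permutation tests over 924 arrangements and correlations 100000 permutations (scipy 1.17.1 in Python 3.11.15). The number of arrays limits the precision. Named are all members, of each other list the miRNAs past the threshold or otherwise the 3 with the smallest p, the 2 most like each member, and those that share the seed bases. Of 710 IDs, 559 matched a RefSeq mature sequence. Alternatives were other normalizations, offsets, filters and variance models, the exact rank-sum test, the normalized table with sex or a replicate block, a column covariate and leaving out each array. Scaling to the array sum was added after seeing the data, as was the range of the members' share when each array was left out. Same-numbered knockouts and wild types had deviations that correlated at -0.12 to 0.18, against -0.27 to 0.34 for other numbers. Mice of the same number are of the same sex. Whether they were paired in another way cannot be told from these values. TaqMan data were not analysed here.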

Additional observations from a re-analysis of the deposited data

Results flagged for a closer look

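Values listed here lay far from the other arrays of their genotype, with a gap to the nearest one that exceeded Dixon's 95% criterion for 6 values. Chance gives about 1 in 20 such groups. Of 24 groups examined, the 7 members, the 4 ratios and the summed share in each genotype, 4 (16.7%) held such a value. The groups are not independent, as the ratios and the share are built from the members. This percentage can therefore not be set against the rate by chance. Knockout 1 exceeded the mean of the other knockouts by 0.67 in the level of mmu-miR-16, at 15.63 against 14.72 to 15.02. It also exceeded them by 8.27 percentage points in the share of summed intensity held by the 7 members, at 21.3% against 10.97% to 14.4%. Knockout 2 lay 0.38 above the other knockouts in the log2 ratio of mmu-miR-15a over mmu-miR-16, at -1.52 against -1.98 to -1.82. This ratio is taken from quantile-normalized levels and follows ranks, here 13 from the brightest for mmu-miR-15a and 4 for mmu-miR-16. In raw intensity mmu-miR-15a and mmu-miR-16 were at 16412 and 44626 on knockout 2. They were at 9518.5 and 34560 on knockout 6, and at 11399 and 58822 on knockout 1. The criterion was not applied to ratios of raw intensities. Wild type 9 differed by -0.25 from the other wild types in mmu-miR-16, at 14.72 against 14.92 to 15.02. At this brightness the level records rank, here rank 6 from the brightest on wild type 9 and rank 4 or 5 on the other wild types. In raw intensity wild type 9, at 22929, lay within the other wild types, and its share of summed intensity for mmu-miR-16 was 3.97%, above the 3.63% of wild type 12.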

How the results depend on the processing

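Under all 27 alternatives no member passed limma's adjusted threshold for genotype, or the rank-sum test's, and the median difference of the members stayed between 0.042 and 0.205. Members past an unadjusted p under 0.05 with limma were 1 with cyclic loess, 1 without wild type 7 and 2 without wild type 8. Of all 710 miRNAs, 61, 79 and 80 passed in the same order. Each member kept its sign under all of them, except mmu-miR-497 with columns 1 to 8 against 9 to 12 as a covariate. That fit sets the knockouts against wild types 7 and 8 alone and gave 0.17. Not every alternative could move a difference. The other filters, the trended variance model and the rank-sum test repeated the main differences. Adding sex or a replicate block repeated those of the authors' normalized values. Scaling to the 75th percentile, cyclic loess and no normalization gave 0.46, 0.41 and 0.47 for mmu-miR-16, 0.28, 0.23 and 0.29 for mmu-miR-15a, 0.44, 0.39 and 0.46 for mmu-miR-15b, -0.10, -0.16 and -0.08 for mmu-miR-195, and -0.18, -0.21 and -0.16 for mmu-miR-497. With the replicate block on the authors' normalized values, differences ran from -0.29 for mmu-miR-195 to 0.28 for mmu-miR-15b, the smallest adjusted p of a member was 0.476 and no call changed. The female minus male difference of mmu-miR-497 in knockouts was -0.0198 with cyclic loess and -0.15 with no normalization, and -0.052 to 0.148 when single arrays were left out.

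Differences of the ratios turned sign with scaling to the 75th percentile, cyclic loess and no normalization. In that order they were -0.180, -0.187 and -0.180 for mmu-miR-15a over mmu-miR-16, -0.0190, -0.0192 and -0.0190 for mmu-miR-15b over mmu-miR-16, 0.087, 0.048 and 0.080 for mmu-miR-195 over mmu-miR-497 (0.024 with an offset of 1), and -0.021, -0.019 and -0.021 for mmu-miR-322 over mmu-miR-503. Leaving out single arrays gave -0.054 to 0.086, 0.047 to 0.226, -0.127 to 0.107 and -0.090 to 0.163 for the 4 pairs, none past the threshold. Some pairs of members had an adjusted permutation p under 0.05 for Pearson r. They numbered 4 with scaling to the 75th percentile, 1 with cyclic loess and 4 with no normalization, against 0 with quantile normalization. By Spearman rho, mmu-miR-497 also passed with mmu-miR-15b and with mmu-miR-16 under scaling to the 75th percentile. The r of mmu-miR-195 and mmu-miR-497 was -0.15 with scaling to the 75th percentile. That of mmu-miR-15a and mmu-miR-16 was -0.61 in wild types, and that of mmu-miR-15b and mmu-miR-16 was -0.39 in wild types and -0.18 without its 2 farthest arrays. The cause of these changes was not tested. The depth of signal limits mmu-miR-497, mmu-miR-322 and mmu-miR-503, whose probes were dim.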
